A study of Mus musculus with 52 samples.

Results

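Rad21 peaks that differed between wild-type cells and germline SmcHD1 null cells were the subject here. They were found by comparing both Rad21 peak lists by position. A peak of the mutant list that shared no base with a wild-type peak was called gained, and a wild-type peak that shared no base with a mutant peak was called lost. Peaks that overlapped a peak of the other list are called retained. There were 17993 gained peaks among the 66031 peaks of the mutant list (27.2%, 95% interval 26.9 to 27.6). There were 19248 lost peaks among the 67655 peaks of the wild-type list (28.5%, 28.1 to 28.8). The 37241 gained and lost peaks were taken from 418635 peaks in all 8 lists of the series. With both lists held to the length of the shorter by score, 27.8% of mutant peaks were gained and 27.5% of wild-type peaks were lost.

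The cells were clonal female mouse embryonic fibroblasts (MEFs) derived from a cross of FVB (M. m. domesticus) with M. m. castaneus mice, in which the castaneus X chromosome is inactive. The wild-type (wt) list came from clone Wt2A1, and the germline null (mut) list came from clone Mut5A6, which the labels give as a SmcHD1 MomeD1 mutant, the MommeD1 allele of the study. Each genotype was therefore 1 clone, with 2 Rad21 libraries merged into 1 list. Effects of genotype, clone and the mix of strains on the autosomes cannot be told apart, nor can a change in chromosome copy number. Lists of CTCF in both clones, and of Rad21 and CTCF in somatic CRISPR knockouts of SmcHD1 (somKO), which were 2 clones, A3-3 and D4, made from another wild-type clone, did not enter the rule and served as separate readouts. Chromatin for Rad21 was fixed with EGS and formaldehyde, and chromatin for CTCF with formaldehyde only. Because each group has 1 list, no value has a replicate error and no test was possible. Intervals are 95% Wilson intervals and cover counting error only. The depth of the libraries is unknown, so that a peak missing from a list may be a weaker site.

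Rad21 is the kleisin subunit that closes the cohesin ring. Cohesin is thought to extrude loops of chromatin until it meets CTCF bound at its motif, so that sites of Rad21 often coincide with CTCF and mark the anchors of loops and the borders of topological domains. Cohesin is also loaded at active promoters and enhancers, where it can be found without CTCF. SmcHD1 is a chromosomal protein that shares a hinge domain with the SMC proteins of condensin and cohesin but has another type of ATPase domain. It is known for its part in silencing of the inactive X, of clustered protocadherin genes and of some imprinted genes.

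The starts of 8 marker genes for each of 5 cell types were checked first, although a peak shows protein and not transcription. Rad21 peaks lay within 1 kb of 5 fibroblast marker starts in wt and 8 in mut, and of no blood marker start in either list. They lay at 0 epithelial, 1 endothelial and 2 neural marker starts in wt, and at 1, 2 and 3 in mut.

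Sequences are shown for each of the 10 strongest lost and 10 strongest gained distal peaks that held a match to the CTCF core motif anywhere in the peak, 7 lost and 4 gained peaks, so that the letters at the sites can be compared. Each line gives 60 bases of the mouse build mm10 read from the RefSeq genome, 5′ to 3′ on the strand named, and the capitals mark the best match to the CTCF core motif with at most 1 mismatch.
Lost peak near Tbx3, far site, chr5:119157369-119157428, minus strand: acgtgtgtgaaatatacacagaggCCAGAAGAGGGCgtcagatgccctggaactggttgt
Lost peak near Tbx3, near site, chr5:119571827-119571886, minus strand: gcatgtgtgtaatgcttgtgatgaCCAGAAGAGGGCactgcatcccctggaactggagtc
Lost peak near Gm7682, chr5:94395438-94395497, minus strand: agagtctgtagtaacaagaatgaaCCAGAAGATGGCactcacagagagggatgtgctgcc
Lost peak near Med13l, before the gene, chr5:118429616-118429675, plus strand: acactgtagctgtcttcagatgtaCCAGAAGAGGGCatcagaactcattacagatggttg
Lost peak near Med13l, beyond the gene, chr5:118814234-118814293, minus strand: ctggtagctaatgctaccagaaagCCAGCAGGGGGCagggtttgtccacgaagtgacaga
Lost peak near Pcdh17, chr14:83944357-83944416, minus strand: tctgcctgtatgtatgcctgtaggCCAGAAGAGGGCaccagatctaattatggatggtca
Lost peak near Epb41l4b, chr4:57181748-57181807, minus strand: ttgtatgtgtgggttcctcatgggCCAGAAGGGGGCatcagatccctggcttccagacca
Gained peak in Grin2b, chr6:136130678-136130737, minus strand: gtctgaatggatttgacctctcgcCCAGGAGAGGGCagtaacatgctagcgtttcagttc
Gained peak near Cyp2b19, chr7:26778812-26778871, minus strand: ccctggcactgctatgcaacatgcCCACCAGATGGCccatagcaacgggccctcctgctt
Gained peak in BC051142, chr17:34411313-34411372, minus strand: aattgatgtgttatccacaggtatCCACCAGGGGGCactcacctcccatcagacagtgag
Gained peak near Sfswap, chr5:129386434-129386493, plus strand: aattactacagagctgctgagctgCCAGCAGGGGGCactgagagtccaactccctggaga
The letters CCAGAAGAGGGC stood at 4 of the 7 lost sites, namely both Tbx3 sites, the first Med13l site and the Pcdh17 site, and at none of the 4 gained sites. The second Med13l site, which was lost, and the Sfswap site, which was gained, had the same letters, CCAGCAGGGGGC. B2 repeats, a family of short interspersed elements in rodents, are known to carry CTCF sites with such letters, but repeat families were not assigned here.

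Across all members, CCAGAAGAGGGC was the most frequent match to the core in each class when windows of 200 bases about the peak midpoint were read on both strands. It was found at 9.94% of lost peaks (9.52 to 10.4), at 4.04% of gained peaks (3.76 to 4.34), at 5.17% of retained wt peaks and at 5.72% of retained mut peaks. In these windows the share among lost peaks was above that in either retained class and the share among gained peaks below it, by more than counting error. Retained peaks were wider, with medians of 775 bp in wt and 810 bp in mut against 347 bp for lost peaks. Letters outside the 200 bases can therefore be missed more often in retained peaks. Among distal peaks the shares were 10.3% of lost, 4.59% of gained, 6.44% of retained wt and 7.16% of retained mut peaks. Of the 1913 lost peaks with these letters, 85.3% had their midpoint in sequence marked as repeat in the genome file, against 20.5% of the lost peaks without them. The letters went with repeats in the other classes too, since 83.6% of gained, 78.8% of retained wt and 78.1% of retained mut peaks with them had their midpoint in such sequence. These 1913 peaks overlapped a wt CTCF peak in 73.6% of cases (71.6 to 75.5), a mut CTCF peak in 49.6% (47.3 to 51.8), and a somKO Rad21 peak in 87.9%. The 727 gained peaks with these letters overlapped a mut CTCF peak in 73.7% of cases (70.4 to 76.8) and a wt CTCF peak in 63.1% (59.6 to 66.6). Retained peaks with the letters had a CTCF peak of their own genotype in 94.6% of cases in the wt list and 91.6% in the mut list.

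Any match to the CTCF core with at most 1 mismatch was found in the same windows at 18.9% of lost peaks (18.4 to 19.5) and 11.1% of gained peaks (10.6 to 11.6). In windows displaced by 10 kb the shares were 1.94% and 2.24%. Retained peaks held a match in 20.2% of cases in the wt list and 21.6% in the mut list. The letters TGANTCA, which are those bound by AP-1 factors, were searched in distal peaks without CTCF in either genotype. They were found at 19.6% of such gained peaks (18.9 to 20.3) and 20.7% of such lost peaks (19.9 to 21.4), against 6.13% and 5.64% of windows displaced by 10 kb. Retained peaks of this kind held them in 23.7% of cases in the wt list and 24.3% in the mut list. A match describes the letters and does not show that the factor was bound.

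Gained and lost peaks were mostly weak and narrow peaks of their own list. The score of each peak was turned into its percentile within its list, so that 100 is the strongest. Gained peaks had a median percentile of 21.3 (quartiles 11.04 and 35.2), and lost peaks 23.4 (quartiles 11.1 and 41.1). Retained peaks had medians of 62.8 in the mut list and 63.04 in the wt list. The median width was 355 bp for gained and 347 bp for lost peaks, against 810 bp and 775 bp for retained peaks of the mut and wt lists. A low rank is partly set by the rule, because a site close to the calling threshold is easily missed in the other list. Some members were nevertheless strong: 1696 gained peaks (9.43%) and 2726 lost peaks (14.2%) stood in the upper part of their list, above percentile 50, and 118 gained and 141 lost peaks stood above percentile 75.

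**Figure D1:**
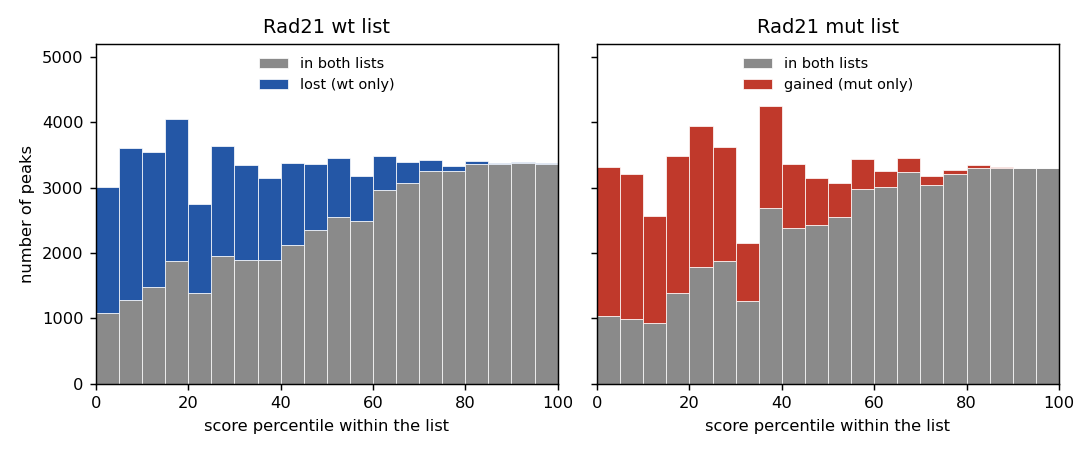
Number of Rad21 peaks (vertical axis) by score percentile within the list in steps of 5 (horizontal axis), for the wt list on the left and the mut list on the right. Grey bars are peaks in both lists, and the stacked blue and red bars are lost and gained peaks, whose medians of 23.4 and 21.3 lie in the weak part of each list.

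Most members lay over 1000 bp from any peak of the other list. The median gap to the nearest peak of the other list was 4648 bp for gained and 5485 bp for lost peaks. The gap was at most 1000 bp for 27.9% of gained and 25.2% of lost peaks, and at most 500 bp for 16.4% and 14.7%. Members just inside the rule, with a gap of at most 100 bp, were 362 gained (2.01%) and 390 lost peaks (2.03%). Just outside it, 222 retained mut peaks and 220 retained wt peaks overlapped by at most 50 bp.

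Gained peaks lay at promoters more often than lost peaks did. A peak within 1 kb of an annotated gene start was called a promoter peak. Promoter peaks made up 16.1% of gained peaks (15.6 to 16.7; 2904 peaks) and 7.83% of lost peaks (7.46 to 8.22; 1507 peaks), against 25.1% and 25.3% of retained peaks in the mut and wt lists. Among gained peaks the promoter share was higher in stronger peaks, from 12.9% below percentile 20 to 24.6% above percentile 60. Among lost peaks it was 8.66% below percentile 20 and 5.95% above percentile 60. The retained peaks of each list moved the same way between these ends, so that the trends were not particular to the members. Their promoter share went from 17.0% to 23.6% in the mut list and from 28.7% to 19.2% in the wt list. It was highest in between, at 32.6% in mut from percentile 40 to 60 and at 34.8% in wt from percentile 20 to 40. By midpoint, introns of annotated genes held 46.1% of gained and 46.4% of lost peaks, and intergenic sequence held 32.1% and 40.9%.

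Promoters also ranked higher in the mut list where both lists had a peak. At 11560 retained promoter sites the median percentile was 54.4 in wt and 61.0 in mut, and 65.2% of these sites ranked higher in mut. At 34131 retained distal sites the medians were 68.6 and 66.0, and 46.6% ranked higher in mut. The part of this list-wide difference in the promoter share of gained peaks was not tested. Windows of 200 bases at gained promoter peaks held at least 10 CG dinucleotides in 42.2% of cases, against 19.8% at lost promoter peaks and 53.2% and 53.3% at retained promoter peaks of the wt and mut lists.

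CTCF, which did not enter the rule, moved with Rad21 at a minority of sites. A mut CTCF peak lay at 24.5% of gained peaks (23.8 to 25.1) and a wt CTCF peak at 17.8% (17.2 to 18.3). For lost peaks the order was the opposite, with a wt CTCF peak at 33.6% (32.9 to 34.3) and a mut CTCF peak at 22.2% (21.6 to 22.8). Retained peaks had a CTCF peak of their own genotype in 71.1% of cases in the mut list and 68.9% in the wt list. CTCF was absent from both lists at 73.6% of gained and 64.6% of lost peaks, and present in both at 15.9% and 20.4%. Where CTCF was found in a single genotype, it was the genotype with the Rad21 peak in 1548 of 1893 gained peaks (81.8%, 79.97 to 83.4). At lost peaks CTCF was in mut only in 342 of 2873 such cases (11.9%) and in wt only in 2531. At retained mut peaks, for comparison, CTCF was in mut only in 64.3% of 3043 such cases.

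The presence of CTCF went with the strength of the peak, in members and in retained peaks alike. A mut CTCF peak lay at 11.5% of gained peaks below percentile 20 and at 85.6% of the 710 above percentile 60. A wt CTCF peak lay at 13.8% of lost peaks below percentile 20 and at 89.4% of the 1142 above percentile 60. Gained peaks with mut CTCF had a median percentile of 37.7, against 15.8 without it. Lost peaks with wt CTCF had a median of 41.7, against 17.9 without it.

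The somKO lists held more of the lost than of the gained sites. A somKO Rad21 peak lay at 79.4% of lost peaks (78.8 to 79.95) and at 50.05% of gained peaks (49.3 to 50.8), and at 98.2% of retained mut peaks. CTCF somKO peaks lay at 38.1% of lost and 21.7% of gained peaks. The somKO Rad21 list is longer, with 89974 peaks from 4 libraries, and its parent was another wild-type clone.

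**Figure D2:**
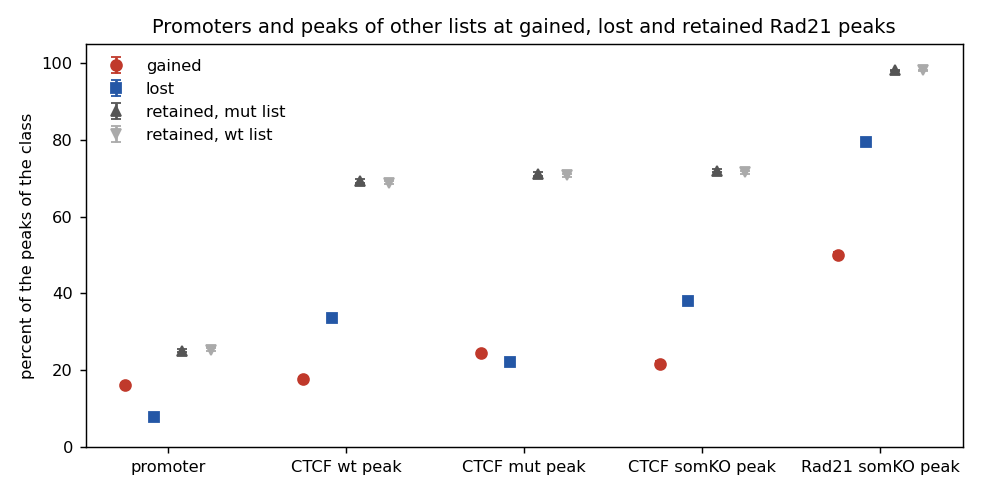
Percent of gained, lost and retained Rad21 peaks (vertical axis) that lie at a promoter or overlap a peak of the list named on the horizontal axis, with 95% Wilson intervals that are mostly smaller than the symbols. Gained peaks have more promoters (16.1% against 7.83%) and lost peaks have more somKO Rad21 peaks (79.4% against 50.05%).

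The strongest gained promoter peak, at percentile 94.6, lay at the starts of Hoxc10 and Hoxc5, homeobox genes of the Hoxc cluster (chr15:102965619-102967191), and overlapped CTCF peaks of both genotypes. The second, at percentile 92.5 and 2721 bp wide, lay inside the annotated body of Mest, an imprinted gene (chr6:30736673-30739393). This peak was 14.5 kb downstream of the annotated Mest start, at the starts of the non-coding genes Gm27568 and Gm44296. That start is the first base of the whole gene record. Starts of single Mest transcripts were not used, so whether the peak lies at one of them was not tested. It overlapped a CTCF peak in mut but not in wt or somKO, and no wt or somKO Rad21 peak. The 120 bases at its middle are shown because they hold 8 CG dinucleotides, which are in capitals. In the label, the word beside refers to the distance from the annotated start.
Gained peak beside Mest, chr6:30737974-30738093, plus strand: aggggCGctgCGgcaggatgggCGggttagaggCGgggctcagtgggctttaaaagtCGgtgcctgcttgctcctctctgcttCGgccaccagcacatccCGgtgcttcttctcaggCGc
Of the 10 strongest gained promoter peaks, 5 lay at clustered protocadherins, Pcdha5, Pcdha4, Pcdhga7, Pcdhac1 and Pcdha11, at percentiles from 83.04 to 89.2. The other three lay at Mettl24, a methyltransferase-like gene (87.3), Mchr1, which encodes a receptor for melanin-concentrating hormone (86.6), and the non-coding Gm37194 (84.0). All 10 overlapped a mut CTCF peak, and 6 overlapped a wt CTCF peak.

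The alpha protocadherins stood out within this set. These genes encode adhesion proteins of neurons from a cluster in which each variable exon has its own promoter with CTCF sites. Of 13 alpha genes, 1 had a Rad21 peak within 1 kb of its start in wt, 13 had such a peak in mut, and 9 had such a peak in somKO. CTCF peaks lay at 11 of the 13 starts in wt and 12 in mut, so that the CTCF lists differed by 1 start where the Rad21 lists differed by 12. The 12 gained promoter peaks reached percentiles from 29.6 at Pcdhac2 to 89.2 at Pcdha5. Among 22 beta genes, 17 starts had a Rad21 peak in wt and 21 in mut, and among 21 gamma genes 6 starts had one in wt and 8 in mut. The gamma genes also had 3 starts with a lost peak, of which Pcdhga11 was the strongest at percentile 70.3. Over all 56 clustered protocadherins, 21 starts had a gained peak (37.5%) and 3 a lost peak (5.36%), against 10.4% and 3.87% of all 21938 protein-coding genes. The genes of this cluster are similar copies, so that reads may have been split or dropped by the alignment. No SmcHD1 peak lay within 1 kb of these starts in wt, and 1 wt SmcHD1 peak lay in the cluster. The study reports SmcHD1 enrichment over the protocadherin locus, which a count of peaks at starts does not measure.

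Hox genes, which give cells their position along the body axis, had gained peaks at 11 of 39 starts (28.2%) and a lost peak at 1, Hoxb13 (2.56%). Over all protein-coding genes these shares were 10.4% and 3.87%. A single gained peak lay at the starts of both Hoxc10 and Hoxc5, which are counted as separate starts here and in the Hoxc cluster. In the Hoxc cluster no start had a Rad21 peak in wt, 4 of 9 had such a peak in mut and 3 in somKO, and the whole cluster held 5 Rad21 peaks in wt and 13 in mut. CTCF peaks lay at 2 Hoxc starts in both genotypes. In the Hoxb cluster 4 of 10 starts had a gained peak, with Hoxb3 the strongest at percentile 42.4. In the Hoxa cluster the number of starts with a Rad21 peak was 8 in both lists, while starts with a CTCF peak were 3 in wt and 8 in mut.

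Imprinted genes, which are expressed from the allele of 1 parent, had gained peaks at 9 of 40 starts (22.5%) and lost peaks at 2 (5.00%). The shares over all protein-coding genes were 10.4% and 3.87%. Among peaks within 1 kb of a listed start, the strongest gained were at Zim1 (73.4), Grb10 (61.3), Slc38a4 (59.3) and Trappc9 (50.2). The gained peak inside Mest was stronger, at percentile 92.5, but lay further from the annotated start. In the neighbouring genes Peg3 and Usp29 the body and its flanks held 2 and 6 Rad21 peaks in wt and 5 and 13 in mut, with a gained peak at percentile 83.2. The lost promoter peaks lay at H19 (62.6) and at Dlk1 (63.4). The body of Dlk1 and its 10 kb flanks held 8 Rad21 peaks in wt and 2 in mut. Ribosomal protein genes, listed as genes that every cell uses, had gained peaks at 8 of 46 starts (17.4%) and a lost peak at 1 (2.17%). A mut Rad21 peak, gained or retained, lay at 42 of the 46 starts (91.3%), against 52.5% over all protein-coding genes. The gained peaks at ribosomal protein genes were weak, with the highest at Rpl28 at percentile 31.0.

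**Figure D3:**
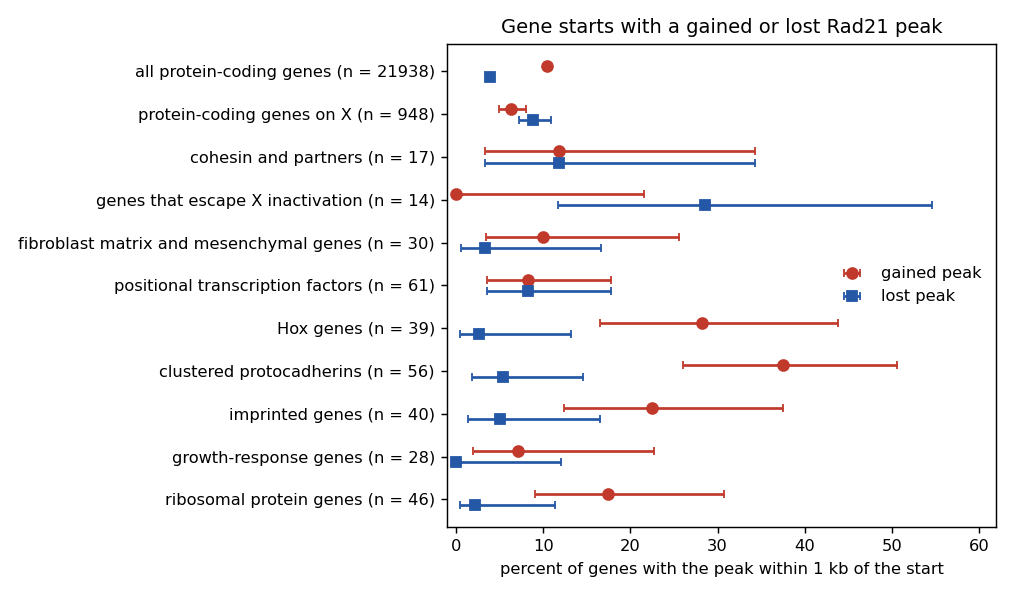
Percent of the genes of each list with a gained (red circles) or lost (blue squares) Rad21 peak within 1 kb of the start, with 95% Wilson intervals. Clustered protocadherins (37.5%) and Hox genes (28.2%) lie above all protein-coding genes (10.4%) for gained peaks, and genes that escape X inactivation lie highest for lost peaks (28.6%). A wt Rad21 peak lay at 78.6% of the starts of escape genes, against 47.8% over all protein-coding genes.

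Transcription factors that mark the position of fibroblasts in the body had gained peaks at 5 of 61 starts and lost peaks at 5 (8.20% each), against 10.4% and 3.87% of all protein-coding genes. The strongest gained promoter peaks were at Tbx20 (66.0), Msx1 (61.8), Hand2 (59.6) and Shox2 (49.8), which act in heart and limb. The lost promoter peaks were at Zic1 (76.4), Irx1 (71.9), Pax3 (69.0), Isl1 (65.8) and Dlx4 (28.1). Zic1 and Pax3, which pattern the dorsal neural tube and the somites, had 6 and 5 Rad21 peaks in the body and flanks in wt and none in mut. Hand2 had none in wt and 3 in mut, and Prrx1, a regulator of limb mesenchyme, had 6 in wt and 14 in mut.

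Matrix and mesenchymal genes of fibroblasts had gained peaks at 3 of 30 starts (10.0%) and a lost peak at 1, close to the values over all genes. Their bodies and 10 kb flanks more often held a member: 23 of 30 held a gained peak and 21 of 30 a lost peak (76.7% and 70.0%), against 38.7% and 35.4% of all protein-coding genes, which differ in length. Col1a2, a chain of type I collagen, had 20 gained and no lost peaks, with 9 Rad21 peaks in wt and 27 in mut. Cald1, which encodes the actin-binding caldesmon, had 22 gained and 3 lost peaks, and Fn1, which encodes fibronectin, had 12 and 2. Other members of the list had more lost than gained peaks: Mmp2, a matrix metalloproteinase gene, and Tgfbi had 4 lost and no gained peaks, Col3a1, a chain of fibrillar collagen, had 4 and 1, and Fbn1, which encodes fibrillin, had 5 and 3. Growth-response genes had gained peaks at 2 of 28 starts (7.14%) and lost peaks at none, against 10.4% and 3.87% of all protein-coding genes. Their bodies and flanks held a gained peak in 15 of 28 cases (53.6%) and a lost peak in 10 (35.7%). Over all protein-coding genes these were 38.7% and 35.4%. Atf3, a factor of the ATF family, had 4 gained and no lost peaks and Egr2 had 3 and none, whereas Fosl2, an AP-1 subunit, had 7 lost and no gained peaks. Of 17 genes of cohesin and its partners, 2 starts had a gained peak (Cdca5 and Lrif1) and 2 had a lost peak (Cdca5 and Esco2). Each share was 11.8%, against 10.4% and 3.87% of all protein-coding genes.

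The strongest lost promoter peaks were weaker than the strongest gained ones. The highest, at percentile 84.9, lay at the start of the non-coding Gm43342, 369 kb from the start of Med13l (chr5:118928925-118929768). It was followed by Nuggc, which encodes a nuclear GTPase (82.9), Mir6367 (79.6), the non-coding Gm44089 (79.2) and Lrch1 (77.4). A broad lost peak of 5037 bp covered the starts of Zic1 and Zic4 (76.4) and overlapped a CTCF peak in wt but not in mut. A further lost promoter peak lay at Tsc22d1 (73.0). All 10 overlapped a wt CTCF peak and a somKO Rad21 peak.

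Above percentile 90 stood 11 lost peaks, all of them distal, and 4 gained peaks, of which 2 were distal. The strongest lost peak, at percentile 99.96, lay 50.6 kb from the start of Gm7682 (chr5:94394137-94396163), with a mut Rad21 peak no nearer than 94420 bp. Its CTCF peak was present in wt, mut and somKO. Of the 10 strongest lost distal peaks, 5 lay near Tbx3 and Med13l on chromosome 5, at percentiles from 94.9 to 98.8. A lost peak 3.76 kb from the start of Emx2, a homeobox gene, stood at percentile 96.9 and overlapped a CTCF peak in wt and somKO but not in mut (chr19:59453353-59455876). Others lay in Acod1, which encodes the enzyme that makes itaconate (97.7), and near Epb41l4b (96.3) and Pcdh17 (90.9).

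The strongest gained distal peak stood at percentile 92.8 in an intron of Grin2b, which encodes a subunit of the NMDA receptor (chr6:136129733-136131562). A wt Rad21 peak was no nearer than 221586 bp, whereas CTCF was present in both genotypes. The second, at percentile 92.4, lay 37.2 kb from the start of Dennd3 (chr15:73474584-73476208), and overlapped a CTCF peak in mut and somKO but not in wt. It was only 296 bp from a wt Rad21 peak. Others in the list lay 135 kb from Irx3, a homeobox gene (86.9), near Cyp2b19, a cytochrome P450 (87.5), and near Sfswap, a splicing regulator (84.2). Of the 25 named gained peaks, counting promoter, distal and X peaks together, 25 had a mut CTCF peak and 17 a wt CTCF peak. Of the 25 named lost peaks, 25 had a wt CTCF peak, 16 a mut CTCF peak and 25 a somKO Rad21 peak, and 17 of the named gained peaks had a somKO Rad21 peak.

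Members were spread over the genome, with a few dense regions. In 2587 windows of 1 Mb that held any peak the median was 5 gained and 5 lost peaks. The 129 windows with most gained peaks, 5% of the windows, held 20.8% of all gained peaks, and the same number of windows with most lost peaks held 20.2% of all lost peaks.

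**Figure D4:**
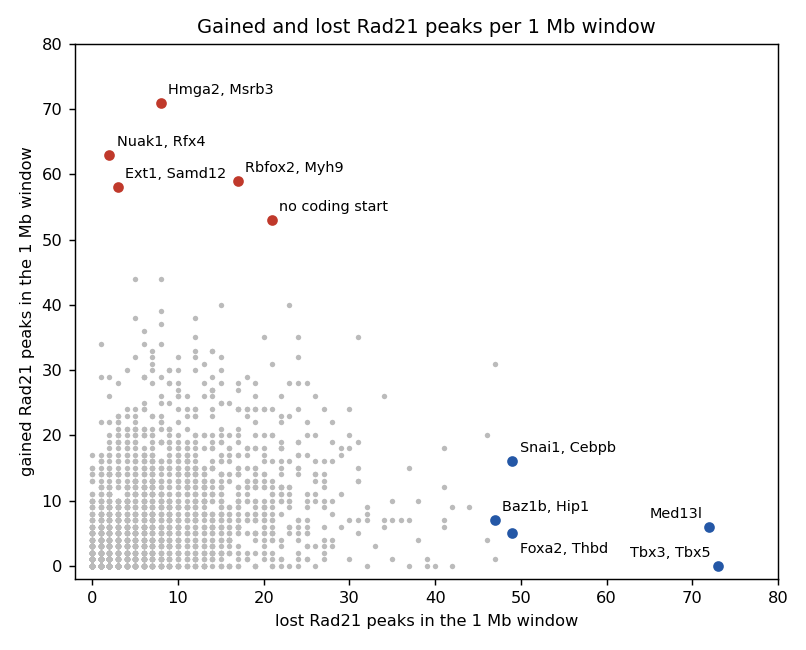
Gained (vertical axis) against lost (horizontal axis) Rad21 peaks in each window of 1 Mb, in grey, with the 5 windows with most gained peaks in red and the 5 with most lost peaks in blue, named by genes that start in them. The window of Tbx3 and Tbx5 has 73 lost and 0 gained peaks, and that of Hmga2 has 71 gained and 8 lost peaks.

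The densest loss was upstream of Tbx3, which encodes a T-box factor of limb and mammary development. The window with Tbx3 and Tbx5 (chr5:119000001-120000000) held 81 Rad21 peaks in wt cells and 9 in mut, against 136 in the somKO list. In the 905 kb between the genes Med13l and Tbx3 there were 88 wt Rad21 peaks, of which 82 were lost, and 7 mut peaks. The 82 lost peaks ranged from percentile 0.758 to 98.8, with a median of 42.0, which was higher than the median of 23.4 over all lost peaks. In the same interval CTCF peaks numbered 50 in wt cells and 14 in mut, against 60 in the somKO list, and 67 of the 82 lost peaks had a somKO Rad21 peak. The neighbouring window with Med13l (chr5:118000001-119000000) held 72 lost and 6 gained peaks, with 119 Rad21 peaks in wt and 70 in mut and 79 and 45 CTCF peaks.

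Some other windows lost Rad21 with less change in CTCF. The window with Foxa2 and Thbd (chr2:148000001-149000000) had 49 lost peaks, with 85 Rad21 peaks in wt and 44 in mut, but 25 and 23 CTCF peaks. The window with Snai1 and Cebpb (chr2:167000001-168000000) also had 49 lost peaks, with 111 Rad21 peaks in wt and 81 in mut, but 68 and 66 CTCF peaks. In the window with Baz1b and Hip1 (chr5:135000001-136000000), which had 47 lost peaks, both numbers fell. Rad21 peaks there were 125 in wt and 91 in mut, and CTCF peaks 127 and 101.

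Among windows, gained peaks were most numerous in that of Hmga2, which encodes an architectural protein of growing mesenchyme. The window with Hmga2 and Msrb3 (chr10:120000001-121000000) held 71 Rad21 peaks in wt cells and 126 in mut, against 90 in the somKO list, with 39, 64 and 54 CTCF peaks. The window with Ext1, which encodes an enzyme of heparan sulfate synthesis (chr15:53000001-54000000), had 58 gained peaks and held 34 Rad21 peaks in wt and 87 in mut, with 14 and 12 CTCF peaks, and none of its gained peaks overlapped CTCF of either genotype. A window with no protein-coding start (chr15:62000001-63000000) held 68 Rad21 peaks in wt and 102 in mut, with 7 and 8 CTCF peaks. The windows with Nuak1 and Rfx4 (chr10:84000001-85000000) and with Rbfox2 and Myh9 (chr15:77000001-78000000) had more gained peaks than that of Ext1, with 63 and 59.

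**Figure D5:**
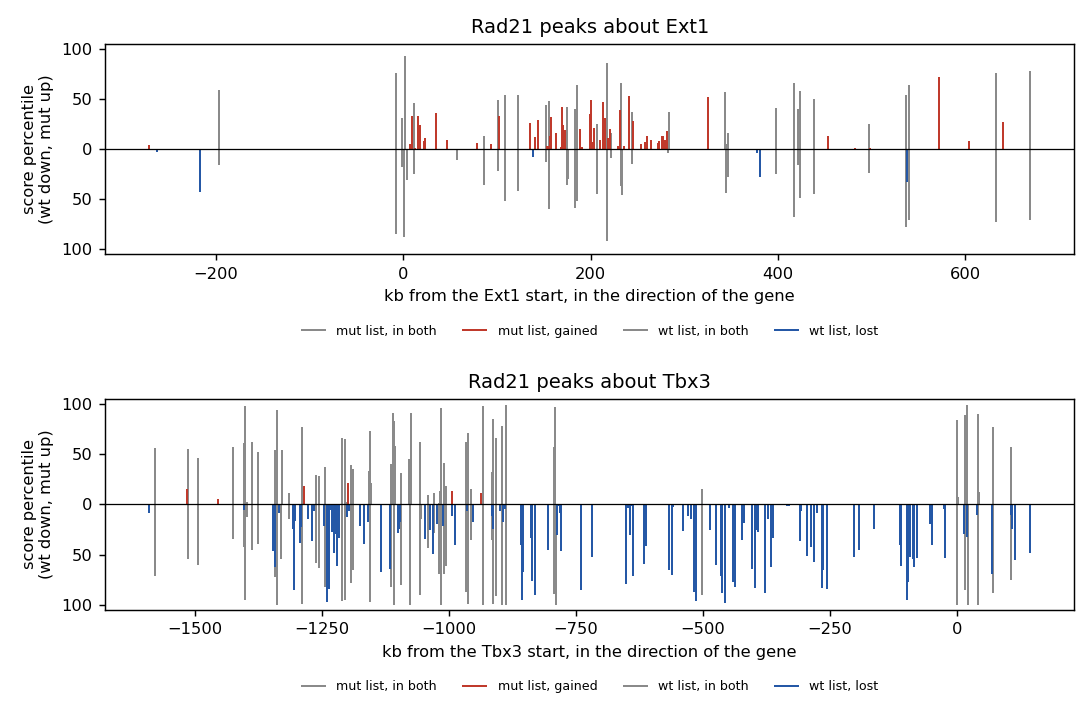
Rad21 peaks about Ext1 (top) and Tbx3 (bottom) by distance from the gene start in kb (horizontal axis) and score percentile within the list (vertical axis), with mut peaks drawn upwards and wt peaks downwards. Grey lines are peaks in both lists, red lines gained and blue lines lost peaks, so that the gained peaks of Ext1 sit in the gene and the lost peaks of Tbx3 fill the sequence before it, where few mut peaks remain.

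Single genes ranked in the same way. Gm20388, a gene model of 4435 kb that spans many other genes, held most members of both kinds (108 gained and 93 lost) and is not informative as a gene. Ext1 with 10 kb either side followed with 54 gained and 1 lost peak, and its Rad21 peaks numbered 24 in wt and 74 in mut. The 54 gained peaks of Ext1 had a median percentile of 12.5, and 9 of them had a somKO Rad21 peak. Foxp1, a forkhead factor, had 39 gained and 13 lost peaks, Hmga2 32 and 2, Dnm3, a dynamin gene, 28 and 8, and Rbfox2, a splicing regulator, 23 and 4. Cald1 and Cux1 had 22 gained peaks each. Gm42416 (23) and Gm20696 (22) are gene models that overlap the protocadherin cluster and Foxp1. For lost peaks, Fgfr2, a receptor for fibroblast growth factors with a gene model of 2961 kb in this annotation, had 38 lost and 17 gained peaks. Rad51b, a recombination gene, had 27 and 20, Babam2, a subunit of a DNA repair complex, 23 and 15, and Rbms3, an RNA-binding protein gene, 22 and 7. Gas7 had 19 lost and no gained peaks, Med13l 19 and 2, Bcar3 17 and 1, and Pcdh7 17 and 3. At Pcdh7 none of the lost peaks overlapped CTCF, and 16 of 17 had a somKO Rad21 peak.

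Chromosomes differed in the balance of gained and lost peaks. The gained share of mut peaks was 26.8% ± 5.31 (mean ± SD of 19 autosomes), from 19.2% on chromosome 16 to 38.1% on chromosome 10. The lost share of wt peaks was 28.5% ± 5.50, from 19.2% on chromosome 10 to 38.5% on chromosome 14. Peak numbers moved with these shares: chromosome 10 had 3395 Rad21 peaks in wt and 4156 in mut, and chromosome 14 had 2293 and 1893. The part of chromosome copy number in these values was not tested.

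Chromosome X had few gained peaks, and its lost share was within the range of the autosomes, 19.2% to 38.5%. There were 232 gained peaks (15.7% of mut peaks on X, 13.9 to 17.7), fewer than on any autosome by share, and 643 lost peaks (34.7% of wt peaks on X, 32.6 to 36.9). The lists combine both alleles, so that a site bound on the active X in wt and on both X chromosomes in mut is a retained site here. The strongest gained X peaks stood at percentiles from 69.5 to 76.3, and the first lay 38.1 kb from Gpc3, which encodes a cell surface proteoglycan (chrX:52651411-52652677). All 5 had CTCF peaks in wt and mut. The strongest lost X peak, at percentile 82.3, lay in an intron of Dmd, the dystrophin gene (chrX:84001203-84002057). Of the 5 strongest lost X peaks, 5 had a CTCF peak in wt and somKO and 1 had a CTCF peak in mut.

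Of 14 genes that escape X inactivation, 4 had a lost peak at the start (28.6%), Mid1, Jpx, Kdm5c and Eif2s3x, and none had a gained peak. Over all 948 protein-coding genes on X these shares were 8.86% and 6.33%. Only a start with a wt Rad21 peak can lose one. Such a peak lay at 11 of the 14 escape starts (78.6%) and at 267 of the 948 starts on X (28.2%), so that the shares of lost peaks are not on the same footing. The 4 lost promoter peaks of escape genes were weak, at percentiles 48.5, 23.4, 12.4 and 2.34. Mid1, which encodes a ubiquitin ligase of microtubules and reaches the border of the pseudoautosomal region, had 13 lost and no gained peaks, with 19 Rad21 peaks in wt and 6 in mut. Firre, a non-coding gene rich in CTCF sites, had 5 lost and 2 gained peaks and 19 Rad21 peaks in both lists.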

How the data were processed

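The authors aligned ChIP-seq reads with Bowtie2 to a mouse genome (mm10) in which strain variants were masked, merged the replicate libraries of a group and called narrow peaks with MACS2 at a q-value below 0.05, on reads of both alleles together. Versions and the use of inputs in peak calling are not given in the sources used here. The deposited lists give chromosome, start, end and a score per peak. The meaning of the score is not stated, and its lowest value of 13 in all 8 lists is what MACS2 writes near that q-value. Scores were only ranked within their own list. Positions are given from 1.

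Overlap meant at least 1 shared bp. Genes were taken from GENCODE M21. The start of a gene was the first base of its record in the direction of transcription, and starts of other transcripts were not used. Promoter peaks came within 1 kb of a gene start, and distal peaks did not. Named peaks were the 10 strongest promoter, 10 strongest distal and 5 strongest X peaks of each kind by percentile, ties broken by width. Named genes were the 10 protein-coding genes with most members in the body and 10 kb either side, the 5 windows of 1 Mb with most members, and at most 6 of each gene list by percentile. Members of gene lists named for their number of peaks were chosen after their values were seen. The members and gene lists were chosen with earlier results of these data known. Overlap steps were tested on simulated lists. Chromosome 18 sequences are not shown, and 1 of the named lost promoter peaks is not reported here. Python 3.11.15 with pandas 2.3.3 and pysam 0.24.0 was used.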

Additional observations from a re-analysis of the deposited data

Results flagged for a closer look

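SmcHD1 peaks, which served above only for the starts of protocadherins, were called in wt and not in mut in 3 of the windows with most lost Rad21 peaks. The window with Tbx3 and Tbx5, with 73 lost peaks, held 88 SmcHD1 peaks in the wt list and 0 in the mut list. The window with Med13l, with 72 lost peaks, held 45 and 0, and the window with Baz1b and Hip1, with 47 lost peaks, held 17 and 0. The SmcHD1 null list is the control for the antibody. The other two windows with most lost peaks held 0 and 3 wt SmcHD1 peaks, and the window with Foxa2 was that with 0. Over all members, wt SmcHD1 peaks lay at 1.17% of lost and 1.21% of gained peaks, and at 3.04% and 3.01% of retained peaks of the mut and wt lists. Among the named peaks, chosen for their rank, 4 of 25 gained and 4 of 25 lost peaks overlapped a wt SmcHD1 peak. The gained ones were the peaks at Hoxc10, inside Mest, in Grin2b and near Sfswap. The lost ones lay at Gm43342, near Tbx3 and near Zcchc13 on X. The Hoxc cluster held 28 wt SmcHD1 peaks, with 9 gained and 0 lost Rad21 peaks. The somKO clones also lack SmcHD1, and their list held 136 Rad21 peaks in the window with Tbx3 and Tbx5, against 81 in wt. Of the 73 lost peaks of that window, 62 overlapped a somKO Rad21 peak. Whether SmcHD1 and the lost Rad21 peaks are related was not tested.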

How the results depend on the processing

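No paired analysis was possible because the replicates of each group were merged by the authors into 1 list, and for the same reason no replicate could be left out. Values that moved by more than their counting interval are given here, and the remaining 12 of 48 did not. With lists of equal length, 27.8% of mut peaks were gained and 27.5% of wt peaks lost, and the wt CTCF share of lost peaks was 35.02%. When shared peaks had to overlap by 50% of both, the gained share was 46.9% and the lost share 48.1%, the promoter shares 19.8% and 15.1%, the CTCF shares 37.05% and 41.3%, and the median percentiles 28.5 and 29.7, for gained and lost peaks in turn. When a gap of up to 500 bp also counted as shared, these were 22.8% and 24.3%, 15.4% and 7.09%, 25.8% and 35.6%, and 23.3 and 26.5. With scores of at least 50 in both lists they were 20.9% and 24.7%, 24.4% and 9.07%, 36.95% and 46.3%, and 17.7 and 21.3. Where peaks were left out of the lists, percentiles were ranked again among the rest. Such percentiles are not on the scale of the full lists. Promoter shares of gained and lost peaks were 24.4% and 15.4% with 2.5 kb either side, and 12.2% and 4.24% with protein-coding starts only. They were 14.5% and 6.70% by the midpoint of the peak, an alternative chosen after seeing the data. CTCF shares were 30.7% and 38.8% with CTCF within 500 bp. Leaving out the 10 windows named above, also chosen after seeing the data, moved only the median percentile of lost peaks, to 23.3. The promoter share of gained peaks stayed above that of lost peaks, and the CTCF share below it, under each of these settings. All 25 named lost peaks and 24 of 25 named gained peaks remained so under a gap of 500 bp, the exception being the peak near Dennd3, and all 25 of each under equal lengths, 50% overlap and a score of at least 50. Depth limits the rest: without read counts, a member cannot be told from a site just under the threshold in the other list.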

Other observations

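At retained sites the rank of a peak in both lists was similar for most sites. Over 45691 pairs of overlapping peaks the difference in percentile (mut minus wt) had quartiles of -7.13 and 7.79, and Spearman's rho across sites was 0.857, as a description of sites that share their libraries. A rise of over 40 points was found at 602 sites and a fall of over 40 points at 574. The sites below were chosen after their values were seen, as the 5 largest shifts each way.

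The largest rise was 17.6 kb from the start of Stab2, a scavenger receptor gene, from percentile 8.72 in wt to 99.3 in mut (chr10:87024532-87026721). Others were 1.45 kb from Rfx7 (5.25 to 93.1), 6.74 kb from Tmem18 (5.25 to 88.1), 118 kb from Klf14, an imprinted gene (18.2 to 99.8), and 38.6 kb from Pkdcc (16.1 to 96.8). The largest fall was 2.09 kb from Btbd16, from 92.01 to 1.65 (chr7:130771549-130772408). Others were 273 kb from Dlgap2, which encodes a postsynaptic scaffold protein (92.1 to 4.23), 8.19 kb from Rin1 (98.4 to 12.7), 8.95 kb from Melk, a mitotic kinase gene (98.3 to 15.8), and 391 kb from Atp6ap1l (83.0 to 1.05). Such sites are in both lists and are not counted as gained or lost.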
